A study of Homo sapiens with 18 samples.

Results

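A549 cells, an established line of human non-small cell lung cancer, were studied 24 h after the start of a TGFβ exposure while both atypical protein kinase C isoforms were silenced. The comparison set 3 arrays labelled siPKCiz (+TGFbeta, 24 hours) against 3 labelled siPKCiz (-TGFbeta), that is 6 of the 18 arrays of the series, and described 18377 genes with 1 symbol each. The siPKCiz cells carried siRNA against PKCiota and PKCzeta together, so the 2 isoforms cannot be told apart, and siControl cells carried a control siRNA. In all groups the cells had been grown in 10% serum and then serum starved. In the treated groups 250 pM TGFβ was present for 1 h, and after a wash the cells spent another 23 h (or 7 h for the 8 h arrays) in medium with 0.2% serum. The untreated arrays have no time in their labels, so the ligand and the time in low serum cannot be told apart. Each group held 3 biological replicates, and 200 ng of RNA was labelled per array. Unless an arm is named, array values below are of siPKCiz cells, given as intensity in the order of replicates 1, 2 and 3. Changes are on the log2 scale with their SE (n = 3 arrays per group). Unless arrays are left out, the SE is from the limma fit of all 18 arrays, in which the groups share an estimate of the spread.

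TGFβ binds a pair of receptor kinases, TGFBR2 and TGFBR1, which phosphorylate SMAD2 and SMAD3; these join SMAD4 and switch genes in the nucleus. In epithelial cells the pathway is known for driving the epithelial to mesenchymal transition, in which SNAI1, SNAI2 and ZEB factors repress E-cadherin and cells gain motility, contractile proteins and matrix. The atypical kinases PKCiota and PKCzeta need neither calcium nor diacylglycerol and act with PAR6 and PAR3 in the complex that sets apical and basal polarity.

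The arrays were comparable in scale and replicate 1 stood apart. Values are the authors' RMA intensity on a linear scale; array medians lay between 156.1 and 160.7, and replicates of a group correlated between 0.992 and 0.998 across genes. Array weights estimated by limma were between 0.409 and 0.698 for the 6 arrays of replicate 1 (a weight of 1 being average). Of the A549 epithelial markers 8 of 8 measured lay above the array median; 3 of them were called lower at 24 h (CDH1, AKR1B10 and MUC1), and their summed intensity was 38857 to 46338 at 24 h and 47672 to 57026 untreated. Among markers of other cells, 1 of 8 leukocyte genes lay above the array median in both groups, 3 of 8 fibroblast genes did in both groups, and 1 of 7 endothelial genes did at 24 h and 0 of 7 untreated. The summed intensity of the fibroblast markers was 1435 to 1579 at 24 h and 1107 to 1193 untreated. Of these fibroblast genes 3 were called higher (LUM, PDGFRA and FBLN2), and the part of fibroblast cells in any result was not tested. None of the 10 measured alveolar type 2 markers was called in either direction by limma.

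Silencing was checked on the 2 targeted genes. PRKCI, which encodes PKCiota, had an intensity of 457, 571 and 558 in siPKCiz at 24 h and 513, 504 and 479 in siPKCiz untreated, against 2633, 2571 and 2815 in siControl at 24 h and 2469, 2163 and 2095 in siControl untreated. PKCiota transcript was thus at 17.4% to 22.2% of the like-numbered siControl array at 24 h, and at 20.8% to 23.3% untreated. PRKCZ, which encodes PKCzeta, had 206, 189 and 152 in siPKCiz at 24 h and 242, 142 and 162 in siPKCiz untreated, against 302, 472 and 408 in siControl at 24 h and 265, 398 and 490.0 in siControl untreated. In replicate 1 this was 68.2% of siControl at 24 h and 91.4% untreated, whereas replicates 2 and 3 lay at 40.04% and 37.3% at 24 h and at 35.7% and 33.1% untreated. PRKCZ was thus least reduced in replicate 1. Neither gene was called between 24 h and untreated in siPKCiz: the log2 change was 0.079 ± 0.09 for PRKCI and 0.029 ± 0.24 for PRKCZ (SE, n = 3 arrays per group; limma adjusted p = 0.654 and 0.958), and the sign for PRKCZ turned under several alternatives.

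Between the TGFβ 24 h and the untreated arrays of the silenced cells 1974 genes differed, 10.7% of those tested. The largest rise was in LCE3D (3.96) and the largest fall in CP (-2.53). Limma with Benjamini-Hochberg adjustment over 18377 genes called 855 higher (4.65%) and 1119 lower (6.09%) at an adjusted p under 0.05. By at least 2-fold 125 rose and 105 fell, and by at least 4-fold 15 rose and 7 fell. The median log2 change of all genes was -0.0080. Over all genes the 3 arrays at 24 h lay wholly above the 3 untreated ones in 12.8% and wholly below in 18.2%, and 1956 of the 1974 called genes had arrays that did not overlap. Counts were 516 and 580 without the 24 h array of replicate 1, 561 and 679 without the untreated array of replicate 1, and 726 lower without the untreated array of replicate 3. With a replicate number left out of all groups they were 730 and 1007 without replicate 1, 387 and 426 without replicate 2, and 408 and 372 without replicate 3. Where list counts below are given with a replicate left out, it is replicate 1, whose removal lowered these totals least. List counts without replicate 2 or 3 are not given, so the stability of the lists there is not shown. In a bulk population, fewer cells of a kind and less RNA per cell cannot be told apart.

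LCE3D, a late cornified envelope protein of skin, had the largest rise. Its intensity was 3603, 1572 and 1752 on the 24 h arrays, against 114, 149.9 and 154 untreated, a log2 change of 3.96 ± 0.27 (SE, n = 3 each; 15.5-fold; limma adjusted p = 7.00e-08). Every treated array was far above every untreated one, and replicate 1 was the highest. Its neighbour LCE3E reached 1274, 512 and 475 at 24 h, against 133, 147 and 146 untreated (log2 change 2.25 ± 0.31; adjusted p = 8.71e-05); LCE3 genes are near-identical copies, so signal may be shared between their probe sets. SLN, sarcolipin, which inhibits the calcium pump of muscle membranes, had 6452, 3231 and 3771 at 24 h and 357, 368 and 401 untreated (log2 change 3.52 ± 0.27; adjusted p = 3.30e-07). The untreated arrays were close together, and among the treated ones replicate 1 was again the highest. TNFAIP6, a secreted protein that binds hyaluronan, had 2678, 726 and 722 at 24 h and 112, 116 and 117 untreated (log2 change 3.28 ± 0.45; adjusted p = 7.53e-05). Without overlap between the groups, replicate 1 again lay well above the other treated arrays.

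HHLA2, an immune checkpoint ligand of the B7 family, rose with replicates close together. It had 883, 907 and 938 at 24 h and 166, 161 and 167 untreated, with a log2 change of 2.47 ± 0.12 (SE, n = 3 each; 5.53-fold; adjusted p = 1.17e-09). SEMA7A, a semaphorin held in the membrane by a lipid anchor, had 637, 666 and 474 at 24 h and 100.4, 110.5 and 112 untreated (log2 change 2.45 ± 0.27). CHRNA9, a subunit of nicotinic acetylcholine receptors, had 715, 522 and 525 at 24 h and 102, 143 and 154 untreated (log2 change 2.15 ± 0.17). The arrays of both groups were apart in each of these genes. IGFL1, a member of the insulin growth factor-like family, was more variable, with 1861, 543 and 438 at 24 h and 75.7, 231 and 209 untreated (log2 change 2.31 ± 0.50; adjusted p = 0.00502). Replicate 1 was the highest of the treated arrays and the lowest of the untreated ones. Among the 15 highest rises were also R3HDML (2.67) and the xylosyltransferase GXYLT2 (2.39). The 15 highest and 15 lowest genes were picked among called genes whose arrays do not overlap, so the separation of their arrays comes with that choice.

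**Figure D1:**
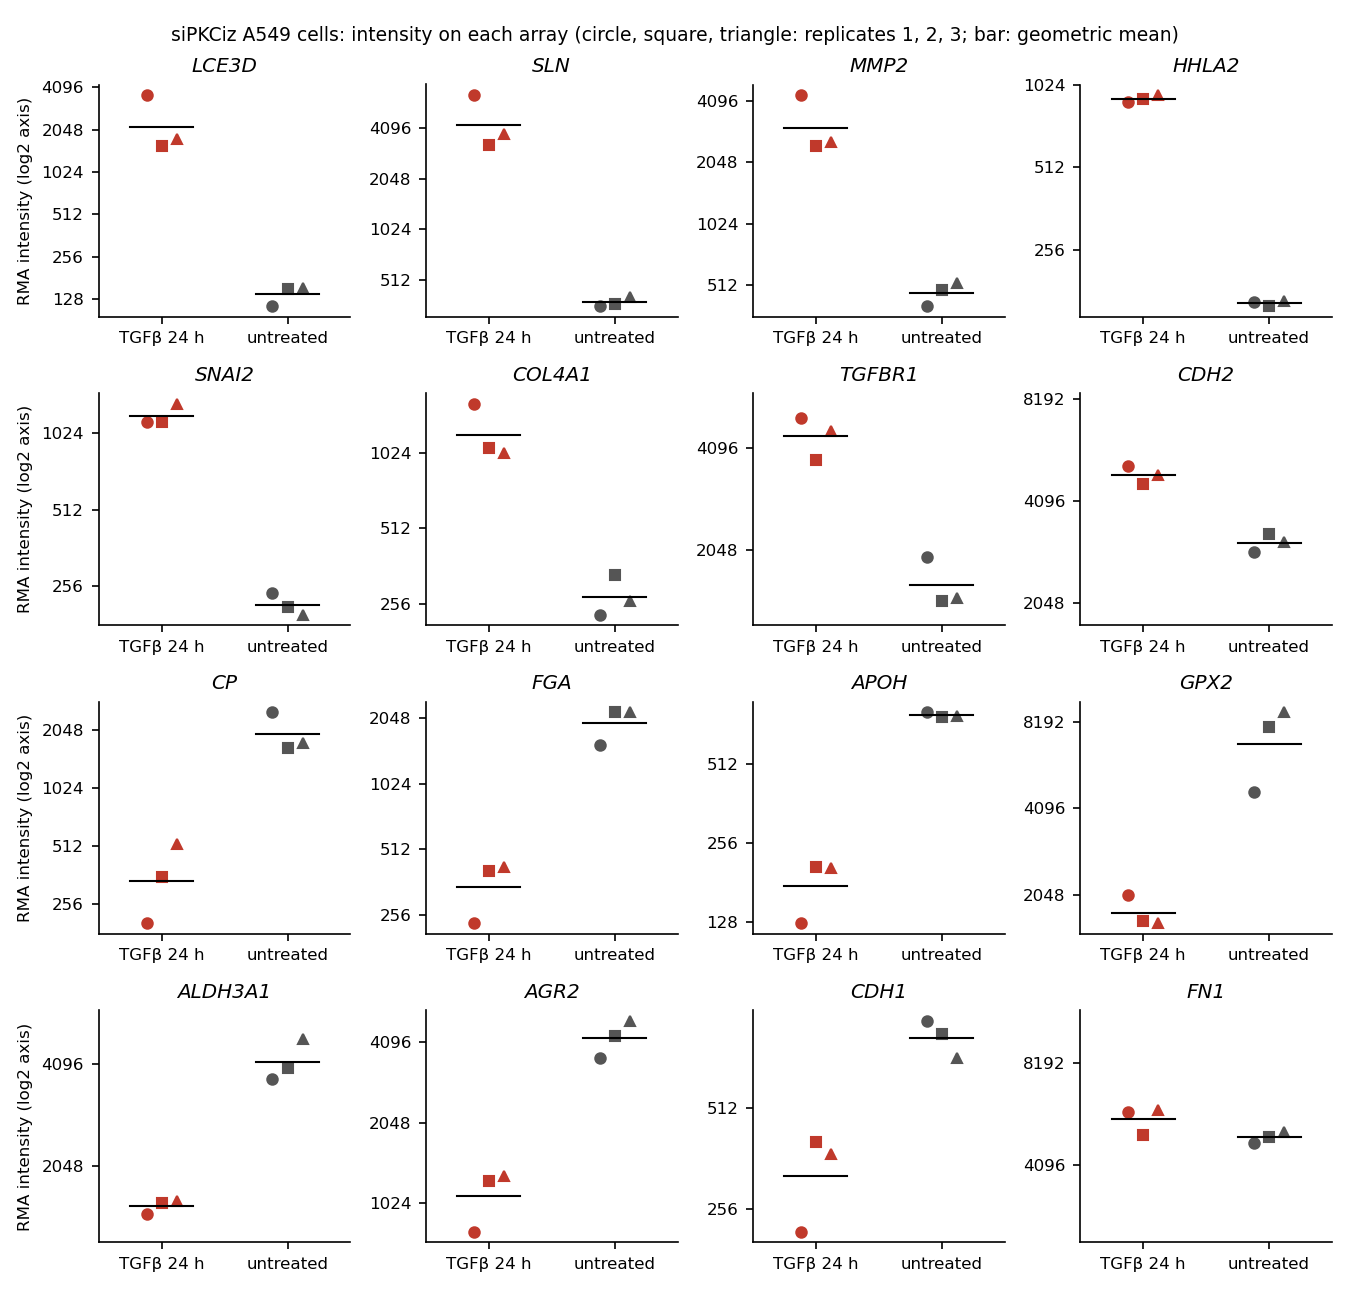
RMA intensity (log2 axis) of 16 genes on each of the 3 siPKCiz arrays at TGFβ 24 h (left in each panel) and the 3 untreated siPKCiz arrays (right); circles, squares and triangles are replicates 1, 2 and 3 and bars are geometric means. The groups are apart for 15 of the genes shown; the arrays of FN1 (5032 to 5948 at 24 h, 4753 to 5104 untreated) overlap.

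The TGFβ pathway itself changed at the level of ligands, receptors and inhibitors. Of 15 ligands and latent binding proteins measured 7 rose and 2 fell, with a median log2 change of 0.24, against 4.65% and 6.09% of all genes. These shares of all genes are the same for every list below. The counts were again 7 and 2 without replicate 1. TGFB1, the main ligand, had 2860.4, 2334 and 2642 at 24 h and 1446, 1351 and 1610.2 untreated (log2 change 0.83 ± 0.12; adjusted p = 0.00015), and TGFB2 rose by 0.43. LTBP2 rose by 1.39 and LTBP3 by 0.76; both belong to the latent TGFβ binding protein family. INHBA, the activin A subunit, rose by 1.12, whereas INHBB, the activin B subunit, fell by 0.96. GDF15, a distant family member induced by cell stress, had 899.8, 1340.1 and 1235 at 24 h and 4502, 3654 and 3897 untreated, and fell by 1.81 ± 0.32 on the log2 scale (adjusted p = 0.000822).

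Receptors moved in opposite directions: 3 of 13 measured rose and 3 fell (median -0.0043; 3 and 3 without replicate 1). TGFBR1, the type I receptor kinase, had 5020.1, 3772 and 4603 at 24 h and 1943, 1449.6 and 1479 untreated (log2 change 1.46 ± 0.15; 2.76-fold; adjusted p = 5.51e-06). TGFBR2, the ligand-binding type II kinase, had 1914, 1585 and 1671 at 24 h and 2858, 2492 and 2336 untreated (log2 change -0.57 ± 0.11; adjusted p = 0.00253). The treated arrays lay wholly above the untreated ones for TGFBR1 and wholly below them for TGFBR2. TGFBR3, betaglycan, a co-receptor that presents ligand, fell by 1.36. BMPR2, the type II BMP receptor, rose by 1.11 and ACVR1, a type I receptor, by 0.42, while the decoy receptor BAMBI fell by 0.36 (adjusted p = 0.0443).

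Of 18 SMADs and their negative regulators 5 rose and 0 fell (median 0.078), and without replicate 1 the counts were 5 and 1. All 5 are inhibitors of the pathway. PMEPA1, which keeps receptor SMADs from the receptor, had 6521, 5321 and 5523 at 24 h and 2748, 2273 and 2314 untreated (log2 change 1.24 ± 0.15; adjusted p = 2.82e-05). LDLRAD4, a relative of PMEPA1 with a like role, rose by 0.88, the ubiquitin ligase SMURF2 by 0.78, the SMAD corepressor SKIL by 0.76 and the inhibitory SMAD7 by 0.75. Early target genes rose in 18 of 31 with 1 fall (LIF, -0.31) and a median of 0.57; without replicate 1 the counts were 18 and 0. ANGPTL4, an inhibitor of lipoprotein lipase, rose by 1.65 ± 0.37, the cytokine IL11 by 1.44 ± 0.13, PDGFB, a growth factor for mesenchymal cells, by 1.18, and the sphingosine kinase SPHK1 by 0.96. In the BMP list 6 of 15 rose and 1 fell (7 and 1 without replicate 1). The activin and BMP antagonists FST (1.22), GREM1 (1.05), FSTL3 (0.74) and NOG (0.67) rose, and the ligand BMP4, with 264, 318 and 312 at 24 h and 577, 671 and 777 untreated, fell by 1.17 ± 0.16 (adjusted p = 7.36e-05).

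The transition markers changed in part. Among the 18 measured factors that drive or mark the transition 4 rose and 0 fell (median 0.11; 3 and 0 without replicate 1). SNAI2, a repressor of E-cadherin also called Slug, had 1127, 1126 and 1332 at 24 h and 241, 212 and 198 untreated (log2 change 2.46 ± 0.18; 5.51-fold; adjusted p = 1.32e-07). SNAI1, its relative Snail, had 621, 488 and 526 at 24 h and 226, 234 and 248 untreated (log2 change 1.20 ± 0.18; adjusted p = 0.000166). Groups were apart for both. TCF4, an E-box binding factor, rose by 0.55, and ETS1 by 0.34 (adjusted p = 0.049, the nearest of the 4 to the threshold). ZEB1 was not called: its arrays had 1167, 1091 and 1128 at 24 h and 965, 947 and 898 untreated, a log2 change of 0.27 ± 0.093 (adjusted p = 0.0763).

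Mesenchymal markers rose in 12 of 20, with 0 fallen and a median of 0.52; without replicate 1 the counts were 11 and 1. N-cadherin, encoded by CDH2, had 5210.5, 4602 and 4898 at 24 h and 2898, 3284 and 3117 untreated (log2 change 0.66 ± 0.072; 1.58-fold; adjusted p = 8.61e-06). The intermediate filament vimentin, VIM, had 6673, 5781 and 6802 at 24 h and 4446, 4873 and 5210.5 untreated (log2 change 0.41 ± 0.11; adjusted p = 0.0197). Fibronectin, FN1, was not called, with 5873, 5032 and 5948 at 24 h and 4753, 4949 and 5104 untreated (log2 change 0.18 ± 0.13; adjusted p = 0.437). TAGLN, the smooth muscle protein transgelin, rose by 1.99 ± 0.18 and SPOCK1, a matrix proteoglycan, by 1.54 ± 0.22.

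Epithelial junction and keratin genes split, with 8 of 29 fallen and 3 risen (median -0.090; 6 and 2 without replicate 1). E-cadherin, CDH1, had 218, 404 and 372 at 24 h and 930.5, 851 and 719.7 untreated, a log2 change of -1.37 ± 0.17 (2.59-fold lower; adjusted p = 2.88e-05). Treated and untreated arrays were far apart, with the lowest value in replicate 1 at 24 h. KRT19, a simple epithelial keratin, fell by 0.90, the epithelial transcription factor ELF3 by 0.94 and the desmosomal plaque protein PKP2 by 0.61. The 3 members that rose were the claudin CLDN4 (0.98) and the desmosomal cadherins DSC2 (0.96) and DSG2 (0.30). DSC2 had 1206, 1071 and 1133 at 24 h and 562, 576 and 614 untreated.

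Matrix genes rose without a fall. Of 42 collagens and matrix proteins 18 were higher and 0 lower (median 0.28; 17 and 0 without replicate 1). COL4A1, a basement membrane collagen chain, had 1606, 1072 and 1023 at 24 h and 232, 334 and 264 untreated (log2 change 2.14 ± 0.19; 4.42-fold; adjusted p = 9.69e-07). COL4A2, its partner chain, had 2349, 1620.2 and 1442 at 24 h and 549.4, 689.6 and 622 untreated (log2 change 1.51 ± 0.17; adjusted p = 9.69e-06). The 2 genes lie head to head on chromosome 13, and the 126 bases between their starts are shown because both genes rose and start at its ends (RefSeq, GRCh38.p14, plus strand, chr13:110307158-110307283).
COL4A1 and COL4A2: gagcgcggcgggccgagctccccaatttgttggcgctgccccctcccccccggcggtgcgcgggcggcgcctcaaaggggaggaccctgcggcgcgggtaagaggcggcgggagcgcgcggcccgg
The stretch held none of the 4 motifs searched below. COL1A1, a chain of fibrillar collagen I, rose by 1.46 ± 0.17, the proteoglycan versican, VCAN, by 1.36 ± 0.17, and SPARC, a collagen-binding matricellular protein, by 1.12 ± 0.16. P4HA3, a subunit of the collagen prolyl hydroxylase, rose by 1.10, and the crosslinking enzymes LOX by 0.97 and LOXL4 by 0.69.

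Proteases and their inhibitors rose together: 14 of 26 were higher and 2 lower (median 0.51; 13 and 2 without replicate 1). MMP2, a gelatinase, had 4356, 2467 and 2571 at 24 h and 406, 486 and 528 untreated (log2 change 2.68 ± 0.27; 6.43-fold; adjusted p = 3.23e-06). MMP1, the interstitial collagenase, had 629.8, 248 and 336 at 24 h and 93.5, 66.8 and 92.2 untreated (log2 change 2.17 ± 0.30). MMP10, stromelysin 2, had 324, 189.9 and 226 at 24 h and 80.5, 71.9 and 90.8 untreated (log2 change 1.58 ± 0.16). None of these overlapped between groups. ADAM19, a membrane metalloprotease, rose by 2.04 ± 0.16. The inhibitors TIMP3 (1.77), TIMP2 (1.09) and SERPINE2 (1.28) rose too, as did urokinase, PLAU (1.04), and its receptor PLAUR (0.97). MMP7, matrilysin, an epithelial protease, fell by 0.71 and MMP24 by 0.84.

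Stretches of the promoters of TNFAIP6 and MMP10 are shown because each holds both a CAGAC (the SMAD motif) and a TGANTCA (the AP-1 motif) upstream of the start; capitals mark them, and the pair was chosen after its values were seen. Promoters here run from 250 bases before to 50 after the first listed start of a gene, from RefSeq (GRCh38.p14), 5′ to 3′ along the gene. TNFAIP6 is on the plus strand at chr2:151357438-151357511, and MMP10 on the minus strand at chr11:102780664-102780741.
TNFAIP6: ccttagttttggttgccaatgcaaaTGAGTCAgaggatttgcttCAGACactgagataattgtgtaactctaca
MMP10: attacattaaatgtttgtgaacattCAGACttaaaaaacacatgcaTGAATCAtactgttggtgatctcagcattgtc
In TNFAIP6 the CAGAC begins at -110 and the TGANTCA at -129 from the start; in MMP10 they begin at -88 and -67. Searched on both strands over the 14210 of 18377 genes with a promoter in the table, CAGAC was in 47.2% of the promoters of genes called higher, 42.03% of those called lower and 44.03% of all. TGANTCA was in 7.56% of those called higher, 5.77% of those called lower and 5.59% of all, and CACCTG, the SNAI motif, in 19.1%, 21.1% and 19.6%. These are matches of letters and show no binding.

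Adhesion and contractile genes rose in part. Of 18 integrins 7 were higher and 2 lower (median 0.15; 8 and 2 without replicate 1). ITGB6, the beta chain of an integrin that activates latent TGFβ, had 2117, 861 and 979 at 24 h and 426, 289.9 and 261 untreated (log2 change 1.93 ± 0.42; adjusted p = 0.00506), with replicate 1 far above the others at 24 h. ITGA11, a collagen receptor chain, rose by 1.26 ± 0.15, and ITGA2, a second collagen receptor chain, by 1.21 ± 0.15. ITGB8 fell: its arrays had 102, 114 and 118 at 24 h and 333, 221 and 214 untreated (log2 change -1.18 ± 0.15; adjusted p = 4.51e-05). Among 32 actin cytoskeleton genes 14 rose and 1 fell, MYLK, the myosin light chain kinase (-0.47); without replicate 1 the counts were 11 and 0. TNS1, tensin, which links integrins to actin, rose by 1.83 ± 0.19, PDLIM7 by 1.05 and tropomyosin TPM1 by 0.70. DOCK2, a Rac activator known from leukocytes, had 641, 543 and 461 at 24 h and 166, 166 and 146 untreated (log2 change 1.77 ± 0.21; adjusted p = 2.10e-05). Of 8 leukocyte markers 1 rose, the B cell gene MS4A1 (0.38), and 1 fell, the monocyte gene CD14 (-0.56); their summed intensity was 1267 to 1449 at 24 h and 1342 to 1381 untreated, and the part of leukocytes in the change of DOCK2 was not tested. RASGRP3, a Ras activator, rose by 1.56 ± 0.38 and DOCK4 by 1.21 ± 0.15.

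Those genes of liver-type plasma proteins that were called fell. Of 21 measured 10 fell and 0 rose (median -0.29; 8 and 0 without replicate 1). Only 11 of the 21 lay above the array median untreated, and 10 did at 24 h. CP, the copper carrier ceruloplasmin, had 205, 355 and 525 at 24 h and 2516, 1648 and 1755 untreated, the largest fall of all called genes (log2 change -2.53 ± 0.38; 5.76-fold lower; adjusted p = 0.000181). The fibrinogen chain genes fell together: FGA had 235, 406 and 427 at 24 h and 1545, 2174 and 2169.9 untreated (log2 change -2.49 ± 0.30; adjusted p = 2.22e-05), FGB fell by 2.13 ± 0.28 and FGG by 1.38 ± 0.22. All treated arrays of these genes were below the untreated ones. APOH, a phospholipid-binding plasma glycoprotein, had 126, 207 and 206 at 24 h and 809.9, 774 and 787 untreated (log2 change -2.17 ± 0.19; adjusted p = 7.25e-07). FGL1, a fibrinogen-like hepatokine, fell by 1.81 ± 0.18, and the complement components C5 by 1.56 ± 0.18 and C3 by 1.08 ± 0.21.

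Mucous and intestinal-type genes fell as well, in 10 of 22 with 0 risen (median -0.50, and -0.25 without replicate 1, with 9 and 0). AGR2, which helps to fold mucins in the endoplasmic reticulum, had 800.3, 1241 and 1294 at 24 h and 3565, 4312 and 4910.0 untreated (log2 change -1.96 ± 0.26; adjusted p = 5.96e-05). ANXA13, an intestinal annexin, had 72.7, 149 and 136 at 24 h and 641, 403 and 416 untreated (log2 change -2.06 ± 0.21; adjusted p = 4.61e-06). TM4SF4, a membrane protein of the L6 family, had 245, 330.3 and 330.4 at 24 h and 1040.0, 1070.5 and 951 untreated (log2 change -1.77 ± 0.11). In all of these the treated arrays lay below the untreated ones. SPDEF, the goblet cell transcription factor, fell by 1.69 ± 0.20, the intestinal cadherin CDH17 by 1.47 ± 0.25, and the pioneer factors FOXA2 by 0.54 and FOXA1 by 0.52.

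Some of the 15 lowest genes belonged to none of these lists. BCAS1, a gene amplified in breast cancer, had 113, 265 and 203 at 24 h and 1139, 807 and 775 untreated (log2 change -2.29 ± 0.22; adjusted p = 2.92e-06). PDE8B, a cAMP phosphodiesterase, had 151, 228 and 245 at 24 h and 807, 873 and 861 untreated (log2 change -2.06 ± 0.24; adjusted p = 1.91e-05). AQP3, a water and glycerol channel, had 139.8, 239.8 and 224 at 24 h and 900.2, 610.2 and 705 untreated (log2 change -1.90 ± 0.22; adjusted p = 1.95e-05). The treated arrays were all lower in each. SLC51B, a subunit of a bile acid exporter, fell by 1.83 ± 0.22, and the fatty acid hydroxylases CYP4F3 by 1.98 ± 0.18 and CYP4F11 by 1.91 ± 0.16; the CYP4F genes are close copies of each other.

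NRF2 target genes had the largest share of members called lower of the 37 lists. They form the glutathione and detoxification programme that is constitutively high in A549 cells because their KEAP1 is mutated. Of 23 measured 18 fell and 0 rose (median -0.49); without replicate 1 the counts were 16 and 0. GPX2, a glutathione peroxidase, had 2051, 1667 and 1633 at 24 h and 4659, 7875 and 8845 untreated (log2 change -1.95 ± 0.25; 3.87-fold lower; adjusted p = 3.62e-05). ALDH3A1, an aldehyde dehydrogenase, had 1486, 1594 and 1614 at 24 h and 3706, 4000.0 and 4856 untreated (log2 change -1.41 ± 0.12; adjusted p = 7.25e-07). GCLM, a subunit of the enzyme that starts glutathione synthesis, had 1435, 1899 and 1747 at 24 h and 2863, 3212 and 2927 untreated (log2 change -0.83 ± 0.10; adjusted p = 2.39e-05). For all of these the treated arrays lay below the untreated ones. Its catalytic partner GCLC fell by 0.75, the aldo-keto reductase AKR1B10 by 0.86 and thioredoxin reductase TXNRD1 by 0.49. NQO1, a quinone reductase, fell less, by 0.37 ± 0.11 (adjusted p = 0.0372). AKR1C1, AKR1C2 and AKR1C3 fell by 0.36, 0.79 and 0.72 in that order, and as near-identical copies may share signal.

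Promoter stretches of GPX2 and GCLM are shown because both genes fell and both hold TGACNNNGC, the NRF2 motif, in capitals and here on the reverse strand of the gene. GPX2 is on the minus strand at chr14:64942834-64942892 and GCLM on the minus strand at chr1:93909431-93909489 (RefSeq, GRCh38.p14).
GPX2: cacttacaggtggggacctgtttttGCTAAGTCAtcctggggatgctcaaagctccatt
GCLM: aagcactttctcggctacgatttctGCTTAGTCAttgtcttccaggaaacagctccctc
The motif begins at -122 in GPX2 and at -34 in GCLM. TGACNNNGC and TGANTCA can share bases, as either may begin with TGA. TGACNNNGC was in 6 of the 18 promoters matched for the NRF2 list (33.3%), in 12.5% of the promoters of genes called higher, 16.7% of those called lower and 14.6% of all.

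Stress and interferon genes that were called were lower, and inflammatory genes were called in both directions. In the unfolded protein and integrated stress response 5 of 20 fell and 0 rose (median -0.33; 6 and 0 without replicate 1): ERN1, the stress sensor IRE1, fell by 0.73, and the serine and asparagine synthesis genes PSAT1 by 0.69, PHGDH by 0.65 and ASNS by 0.53 (adjusted p = 0.0296). Of 29 interferon response genes 6 fell and 0 rose (median -0.15; 9 and 0 without replicate 1), led by OAS1, an antiviral synthetase, with 1215, 1030.4 and 1149 at 24 h and 2156, 1902 and 2363 untreated (log2 change -0.92 ± 0.14). IFITM2 fell by 0.80 and IFIT1 by 0.68. Of 24 cytokines and genes under NF-κB 3 rose and 5 fell (2 and 5 without replicate 1). IL11, given above, and IL1A rose, the second by 1.32 ± 0.35, and RELB rose by 0.41, while CXCL5, a neutrophil chemokine, fell by 1.15, PTGS2, cyclooxygenase 2, by 1.05 and CSF1 by 0.76.

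Growth and metabolic lists were called to different extents. Of all genes 4.65% were called higher and 6.09% lower, and the 8.57% of cell cycle genes called lower lay near that share. Of 35 cell cycle and replication genes 0 rose and 3 fell, TK1, GINS2 and E2F2, by 0.40, 0.31 and 0.30 in that order (median -0.21); without replicate 1 the counts were 1 and 10. Called or not, 32 of the 35 had a change below 0 and 3 above, against a median of -0.008 over all genes. Hypoxia and glycolysis genes had 1 risen and 5 fallen of 23 (0 and 6 without replicate 1), with the aldolase ALDOC at -1.03 and the peptide ADM at -0.83. Sterol biosynthesis had 0 risen and 2 fallen of 17, ACAT2 (-0.42) and EBP (-0.34), and 0 and 1 without replicate 1. Called or not, all 17 sterol genes had a change below 0 (median -0.18). In the PPAR list 1 of 17 rose, ANGPTL4, and 3 fell; PDK4, which inhibits pyruvate dehydrogenase, had 585, 867 and 913 at 24 h and 2305, 2443 and 3122 untreated (log2 change -1.75 ± 0.32; adjusted p = 0.00129). The p53 target list had 2 risen and 2 fallen of 18, among them TP53I3 (0.79), PLK2 (-0.58) and GDF15 (-1.81), which is in the TGFβ ligand list too. Of 23 genes listed as YAP and TEAD targets 8 rose and 2 fell (9 and 2 without replicate 1): the ectonucleotidase NT5E rose by 0.95 and CCN2 by 0.64, whereas ANKRD1, usually read as a YAP target, fell by 1.09 ± 0.21.

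Of 20 partners of the atypical kinases and polarity genes 6 fell and 0 rose (median -0.10; 5 and 0 without replicate 1). LLGL2, a basolateral polarity protein, had 212, 296 and 298 at 24 h and 572, 470.4 and 437 untreated (log2 change -0.88 ± 0.14; adjusted p = 0.000291). PARD6A and PARD6B, the PAR6 adaptors of the atypical kinases, fell by 0.71 and 0.41 in that order. Other PKC isoforms had 2 risen and 1 fallen of 11: PRKCA rose by 0.36 and PRKD3 by 0.44, and PRKCH fell by 0.56. AP-1 and NR4A factors had 3 risen and 0 fallen of 15 (3 and 1 without replicate 1), MAF by 1.16 ± 0.094, JUNB by 1.12 ± 0.19 and JUN by 0.77 ± 0.14. Semaphorins and axon guidance genes had 5 risen and 4 fallen of 26, among them the receptor NRP2 (0.94) and its relative NRP1 (-0.37). In the IGF list 3 of 9 rose (1 without replicate 1), with IGF1 at 0.50 and IGFBP7 at 0.47, and 2 of 18 cornified envelope genes rose, LCE3D and LCE3E. For each list of this paragraph the share over all genes was 4.65% higher and 6.09% lower.

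**Figure D2:**
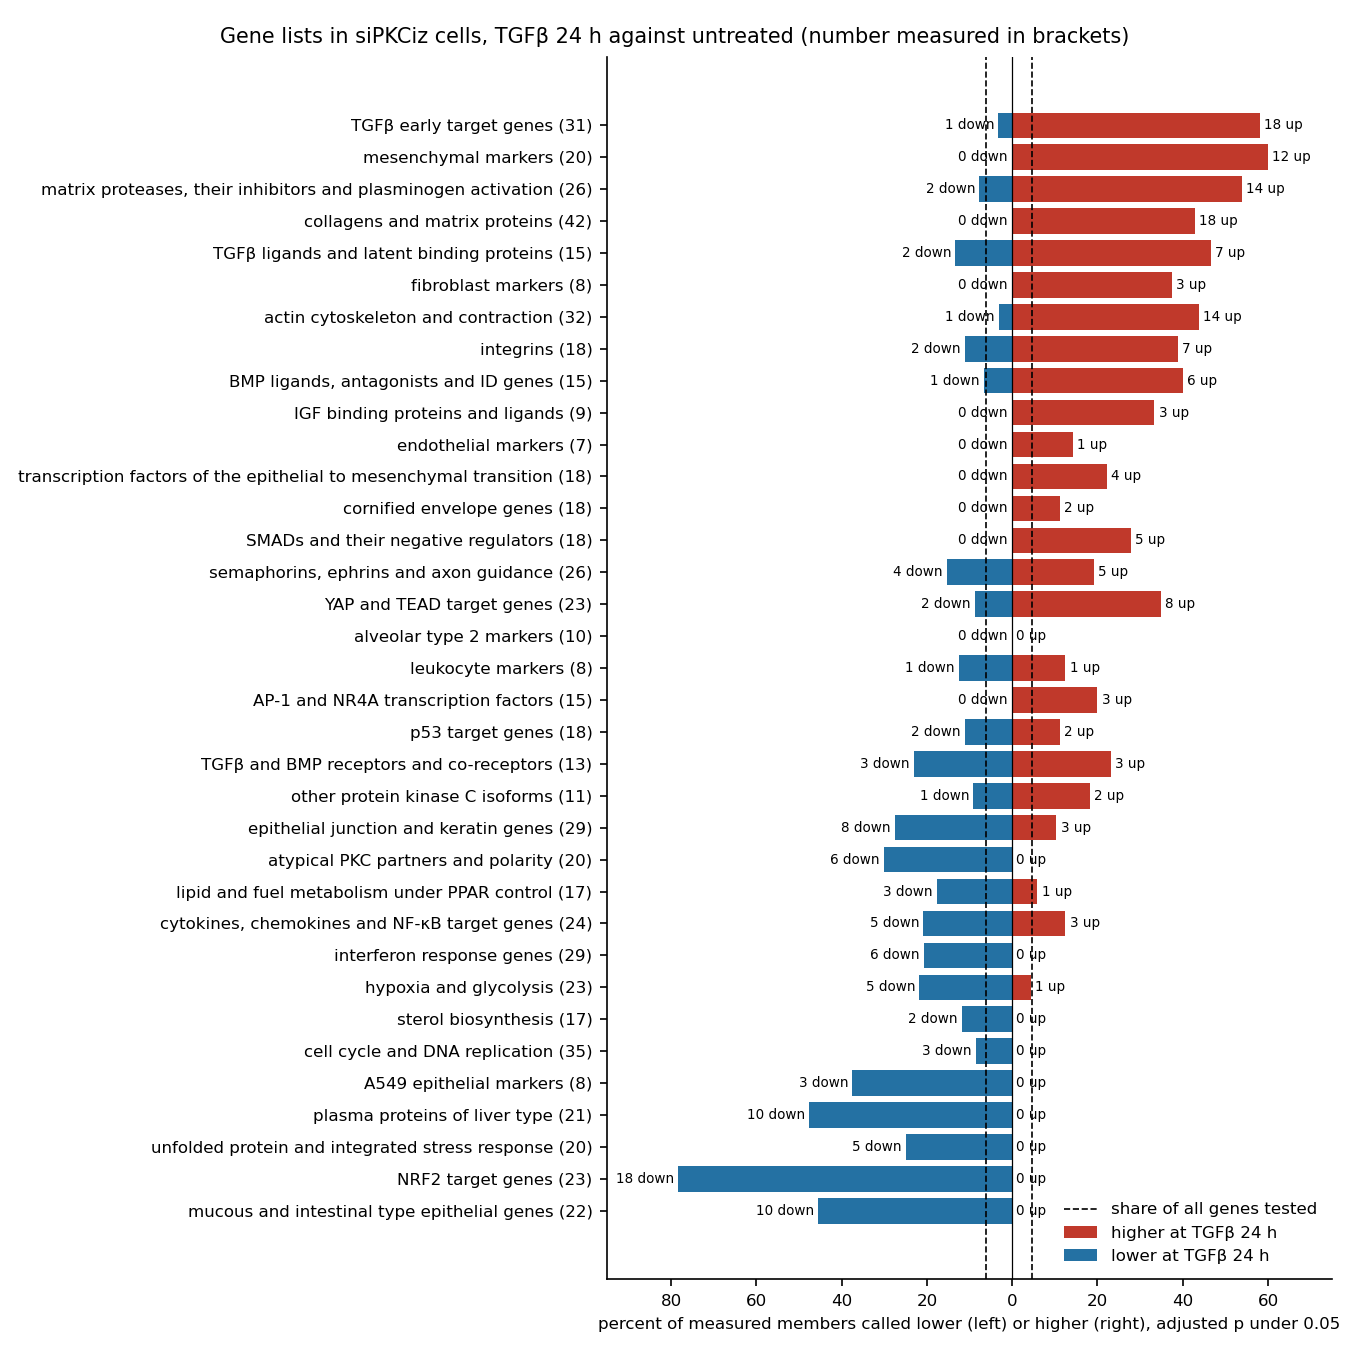
Percent of the measured members of gene lists called higher (right) or lower (left) at TGFβ 24 h against untreated siPKCiz cells; dashed lines give the share over all genes tested (4.65% higher, 6.09% lower). NRF2 target genes have 18 of 23 members lower and none higher, and collagens and matrix proteins have 18 of 42 higher and none lower.

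The earlier arrays of the silenced arm place these changes in time. At 8 h limma called 575 genes higher (3.13%) and 616 lower (3.35%) against the same untreated arrays, which both times share. Those counts were 204 and 153 without replicate 2 and 160 and 163 without replicate 3. The direct test of 24 h against 8 h called 71 genes higher (0.386%) and 77 lower (0.419%). Without replicate 1 that test called 136 and 163, without replicate 2 it called 1 and 0, and without replicate 3 it called 5 and 6. SEMA7A had 100.4, 110.5 and 112 untreated, 848, 578 and 588 at 8 h and 637, 666 and 474 at 24 h, and ANGPTL4 had 371, 369 and 350.1 untreated, 3628, 1536 and 1778 at 8 h and 1398, 992 and 1069 at 24 h. The arrays of both times lay above the untreated ones in these genes. SNAI2 had 241, 212 and 198 untreated, 1211, 801 and 968 at 8 h and 1127, 1126 and 1332 at 24 h, and the direct difference was 0.28 ± 0.18 (adjusted p = 0.557). JUN was highest at 8 h, with 872, 742 and 700.4 untreated, 1959, 1909 and 1729 at 8 h and 1538, 1176 and 1241 at 24 h, though 24 h minus 8 h was not called (-0.51 ± 0.14; adjusted p = 0.102).

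HHLA2 rose late, with 166, 161 and 167 untreated, 263, 211 and 253 at 8 h and 883, 907 and 938 at 24 h; 24 h minus 8 h was 1.91 ± 0.12 (SE; adjusted p = 9.30e-08). CST1, a secreted cystatin, had 869, 323 and 795 untreated, 668, 406 and 852 at 8 h and 2068, 1772 and 2368 at 24 h (1.74 ± 0.32; adjusted p = 0.0139). SLN had 1703, 1134 and 1081 at 8 h (1.74 ± 0.27; adjusted p = 0.0046). At 24 h these arrays lay above all arrays of 8 h. In the same test rose LCE3E (1.60), R3HDML (1.46), LCE3D (1.45), MMP2 (1.19) and SRPX (1.13), the 8 highest in all. In the matrix list 5 of 42 were higher at 24 h than at 8 h, against 0.386% of all genes. Among them were LUM, the proteoglycan lumican (1.08), and VCAN (0.96). LUM had 245, 248 and 271 untreated, 179.9, 218 and 254 at 8 h and 471, 474 and 424 at 24 h.

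Detoxification genes were among those lower at 24 h than at 8 h. In the NRF2 list 5 of 23 were lower at 24 h than at 8 h and 0 higher, against 0.419% and 0.386% of all genes. Few calls of that test remained without replicate 2 or without replicate 3, as given above. Against untreated 6 were lower and 1 higher at 8 h, where 3.35% and 3.13% of all genes were. At 24 h 18 were lower and 0 higher, against 6.09% and 4.65% of all genes. GPX2 had 4659, 7875 and 8845 untreated, 4089, 3954 and 4288 at 8 h and 2051, 1667 and 1633 at 24 h (24 h minus 8 h -1.21 ± 0.25; adjusted p = 0.0268). ALDH3A1 had 3706, 4000.0 and 4856 untreated, 3161, 3086 and 3512 at 8 h and 1486, 1594 and 1614 at 24 h (-1.05 ± 0.12; adjusted p = 0.000469). TM4SF4 had 610.2, 651 and 562 at 8 h (-1.02 ± 0.11; adjusted p = 0.000324). In each, the 8 h arrays lay between the untreated and the 24 h ones. The other lowest were CYP4F11 (-1.12), the kinase STK32B (-1.11), RBP4, the retinol carrier (-1.10), BCAS1 (-1.09) and GKN2 (-1.07). GKN2, gastrokine 2, differed from the rest: it had 136, 128 and 169 untreated, 247, 344 and 167 at 8 h and 128, 107 and 110.2 at 24 h, and 24 h minus untreated was not called (-0.32 ± 0.22; adjusted p = 0.427).

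**Figure D3:**
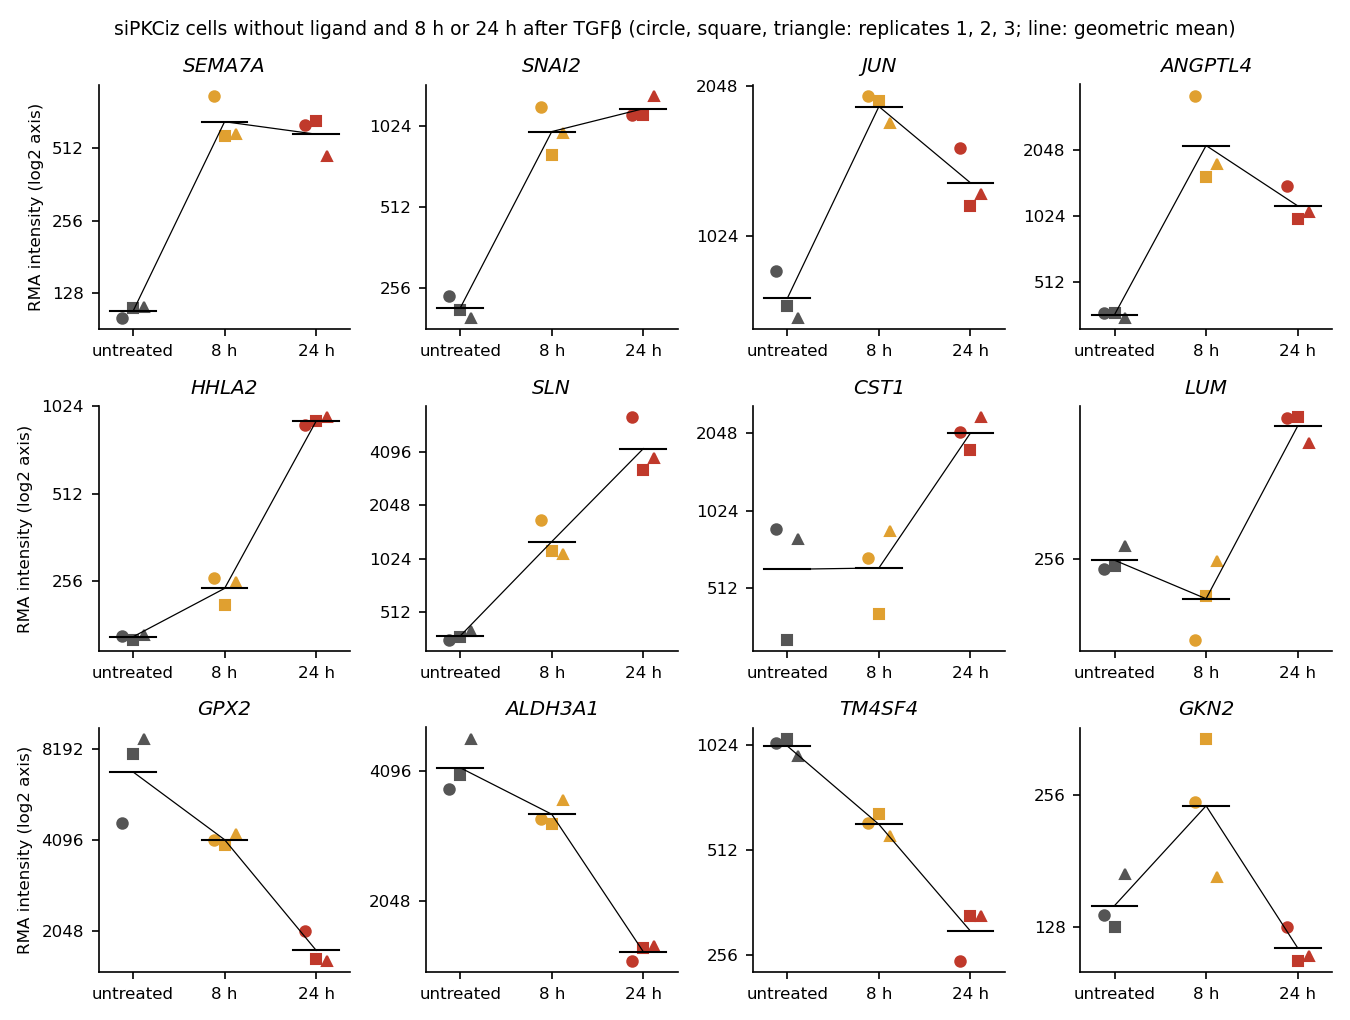
RMA intensity (log2 axis) of 12 genes on the siPKCiz arrays without ligand and 8 h and 24 h after TGFβ; circles, squares and triangles are replicates 1, 2 and 3 and the line joins geometric means. HHLA2 and CST1 rise between 8 h and 24 h, GPX2 and ALDH3A1 fall in that interval, and GKN2 is higher at 8 h than at 24 h.

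The same ligand and time in siControl cells gave 1075 genes higher (5.85%) and 1187 lower (6.46%), and the test of the difference between the arms called no gene. The siControl counts were 380 and 381 without replicate 2 and 424 and 331 without replicate 3. Limma called 0 of 18377 genes (0.0%) in siPKCiz minus siControl, with 705 at an unadjusted p under 0.05; the median standard error of that difference was 0.14 log2 units. Of the genes called higher 657 were called in both arms, 76.8% of the siPKCiz list and 61.1% of the siControl list. Of those called lower 746 were shared, 66.7% and 62.8%, and 0 genes were called in opposite directions. Across genes the changes of the arms, which share no array, correlated with Pearson r = 0.847 and a Spearman rank correlation of 0.648; genes are not independent replicates. Of the 230 genes changed by at least 2-fold in siPKCiz, 230 had the same sign in siControl and 220 were called there, and 119 were smaller in size in siControl. Of the 277 changed by at least 2-fold in siControl, 277 had the same sign in siPKCiz, 262 were called and 210 were smaller in siPKCiz. Genes chosen for their size in one arm tend by that choice to be smaller in the other. The part of that choice in the counts of smaller genes was not tested.

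For the leading genes the difference was given an interval, since a missed threshold does not show equal responses. LCE3D differed by -0.26 ± 0.38 between the arms, with a 95% interval of -1.06 to 0.53, SLN by -0.16 (-0.96 to 0.65), MMP2 by -0.21 (-0.997 to 0.58), HHLA2 by 0.088 (-0.27 to 0.45), CP by -0.16 (-1.29 to 0.96) and CDH1 by 0.25 (-0.26 to 0.76), all on the log2 scale. Each of these intervals holds 0. SNAI2 rose by 2.46 in siPKCiz and 1.95 in siControl, a difference of 0.51 (-0.0072 to 1.04). ZEB1, not called in siPKCiz, rose by 0.44 in siControl (adjusted p = 0.00347), and its difference was -0.17 (-0.45 to 0.11). The counts of the lists are given side by side, with no test between the arms. NRF2 target genes had 0 risen and 18 fallen in siPKCiz, against 1 and 16 in siControl, matrix genes 18 and 0 in both, plasma proteins 0 and 10 in both, and epithelial genes 3 and 8 in siPKCiz, against 4 and 8 in siControl. Atypical kinase partners and polarity genes had 0 and 6 in siPKCiz, against 2 and 4 in siControl, mucous genes 0 and 10 in siPKCiz, against 1 and 8 in siControl, and cell cycle genes 0 and 3 in siPKCiz, against 1 and 1 in siControl.

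**Figure D4:**
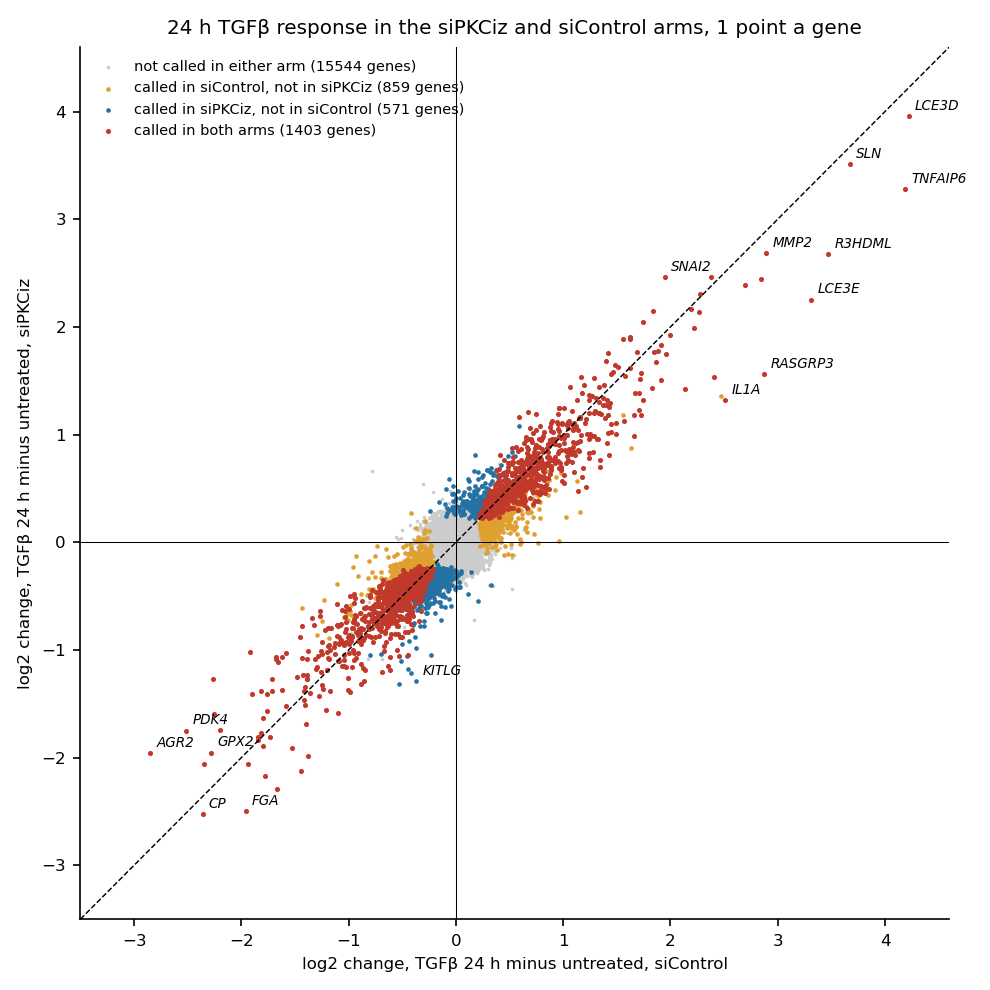
Log2 change at TGFβ 24 h against untreated in siPKCiz (y axis) and siControl (x axis), 1 point per gene, coloured by the arms in which limma called the gene; the dashed line marks equal change. LCE3D and SLN lie close to the line, while RASGRP3, IL1A and LCE3E lie below it and AGR2 above it.

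Leaving out replicate 1 changed this comparison of the arms. In siPKCiz its 24 h array was the most extreme of the 3 in 70.1% of the genes called higher and 67.02% of those called lower, and in siControl in 20.9% and 21.6%. Without replicate 1 limma called 80 genes in the difference, 31 with a higher and 49 with a lower change in siPKCiz, against 0 genes without replicate 2 or without replicate 3. In the arrays of replicate 1 alone the difference had the same direction in 26 of these 80 genes (32.5%). The genes of this and the next paragraph, KITLG aside, are among these 80. Their large differences without replicate 1 come with that choice and are no separate support. RASGRP3 had 1357, 527 and 498 at 24 h and 128, 318 and 340.2 untreated in siPKCiz, against 1068, 1552 and 1498 at 24 h and 132, 200.1 and 239 untreated in siControl. Its difference was -1.31 ± 0.53 over all arrays (limma unadjusted p = 0.0234, not called after adjustment) and -2.16 ± 0.16 without replicate 1. IL1A, interleukin 1 alpha, had 300.3, 167 and 157 at 24 h and 91.8, 68.3 and 81.4 untreated in siPKCiz, against 239.6, 939 and 815 at 24 h and 104, 93.8 and 100.7 untreated in siControl. In both genes replicate 1 was the highest treated array in siPKCiz and the lowest in siControl.

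For LCE3E the difference was -1.06 over all arrays (-1.98 to -0.13) and -1.995 without replicate 1. For TNFAIP6 it was -0.91 over all arrays (-2.24 to 0.42; unadjusted p = 0.169) and -1.74 without replicate 1, and for INHBA -0.44 (-1.13 to 0.24; unadjusted p = 0.189) and -1.16. In replicate 1 alone each of these rose more in siPKCiz: LCE3E by 3.26 against 2.45 in siControl, TNFAIP6 by 4.57 against 3.82, and INHBA by 1.81 against 0.83. ODAPH, an enamel protein gene chosen after its values were seen, had 273, 114 and 96.9 at 24 h and 66.1, 54.8 and 49.2 untreated in siPKCiz, against 112, 597 and 555 at 24 h and 63.6, 54.0 and 63.8 untreated in siControl (difference -1.11 over all arrays and -2.28 without replicate 1). AGR2, which fell in both arms, had 800.3, 1241 and 1294 at 24 h and 3565, 4312 and 4910.0 untreated in siPKCiz, against 635, 361 and 322 at 24 h and 3557, 2741 and 2832 untreated in siControl. Its fall was shallower in siPKCiz by 0.89 over all arrays (0.12 to 1.66) and by 1.17 without replicate 1. SLC27A2, a fatty acid transporter, fell in both arms too, with a difference of 0.90 over all arrays (0.35 to 1.45) and 1.14 without replicate 1. For PDK4 the difference was 0.76 over all arrays, with an interval that holds 0 (-0.19 to 1.72; unadjusted p = 0.111), and 1.26 without replicate 1; in replicate 1 alone PDK4 changed by -1.98 in siPKCiz and -1.76 in siControl. MATN3, SORL1 and NALCN had lower unadjusted p-values over all arrays than KITLG (limma, 7.47e-05, 0.00021 and 0.00042), and none was called after adjustment. MATN3 differed by -0.65 over all arrays and was the 1 gene called under array weights (-0.71, limma adjusted p = 0.0403). In replicate 1 alone MATN3 changed by 0.39 in siPKCiz and 0.75 in siControl. KITLG, the ligand of the receptor KIT, was chosen after its values were seen, for its low unadjusted p with all arrays in place. It had 108, 138 and 117 at 24 h and 246, 372 and 279.6 untreated in siPKCiz, against 124, 80.6 and 109 at 24 h and 148, 126 and 125 untreated in siControl. This was a difference of -0.92 ± 0.22 (-1.38 to -0.47; unadjusted p = 0.000485), which did not pass the adjustment over all genes (adjusted p = 1). The untreated siPKCiz arrays lay above all other arrays of the gene, and the 24 h arrays of both arms overlapped.

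**Figure D5:**
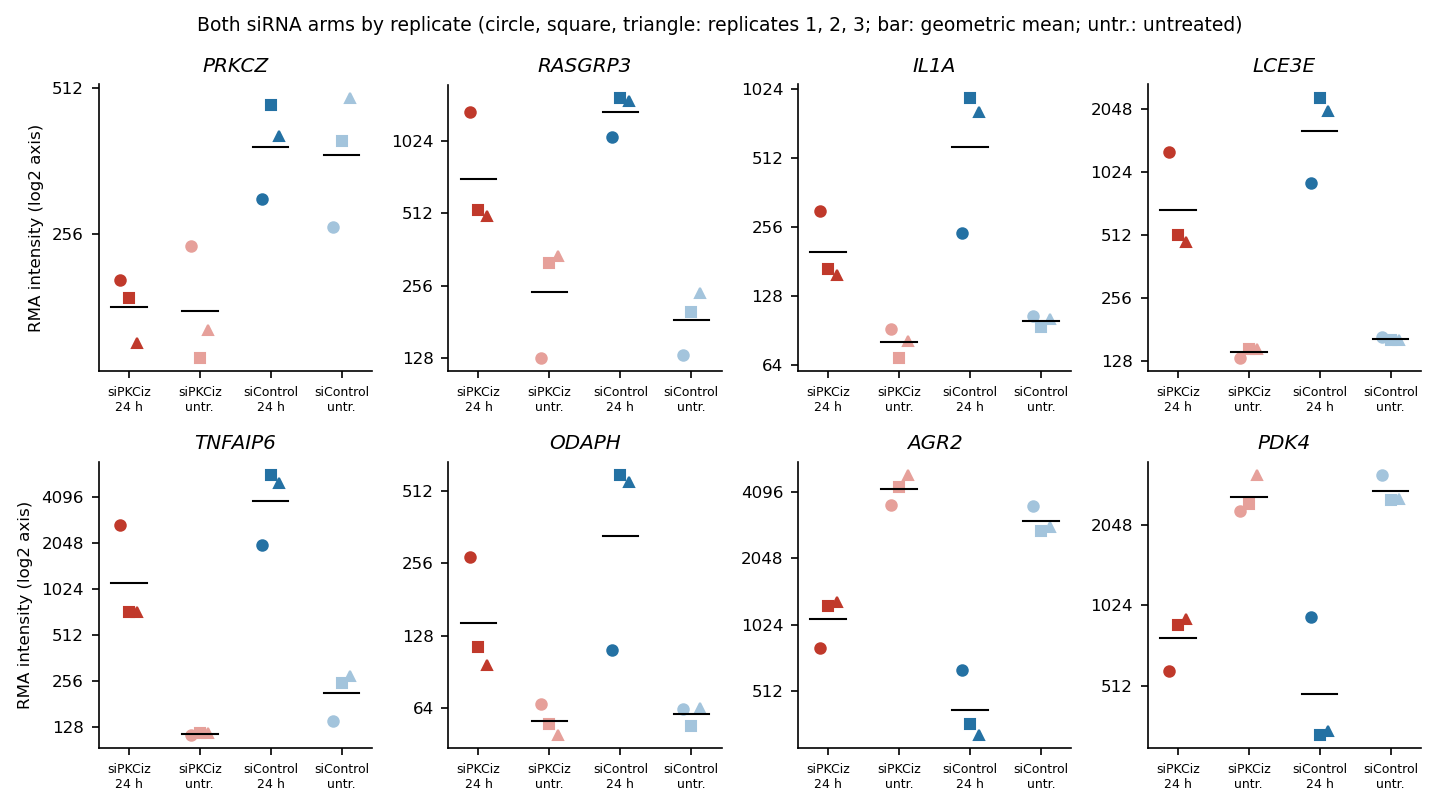
RMA intensity (log2 axis) of 8 genes on the siPKCiz and siControl arrays at TGFβ 24 h and untreated; circles, squares and triangles are replicates 1, 2 and 3 and bars are geometric means. For RASGRP3, IL1A, LCE3E, TNFAIP6 and ODAPH the circle is the highest treated point in siPKCiz and the lowest in siControl.

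Small RNA genes were read by the same arrays, and their members were chosen after the values were seen. Of 173 miRNA genes 8 rose and 0 fell at 24 h (median 0.068), a share called higher near the 4.65% of all genes, against 4 risen and 1 fallen in siControl; the probe sets read transcript over the hairpin gene and do not tell the mature miRNA apart. The mature sequences of 5 of them are shown, with the seed (bases 2 to 8) in capitals, because their seeds differ and set different target sites. They are from RefSeq (GRCh38.p14): miR-31-5p at chr9:21512158-21512178 (minus strand), let-7a-5p at chr11:122146568-122146589 (minus), miR-23a-3p at chr19:13836595-13836615 (minus), miR-24-3p at chr19:13836289-13836310 (minus) and miR-181c-5p at chr19:13874725-13874746 (plus).
hsa-miR-31-5p: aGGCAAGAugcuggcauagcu
hsa-let-7a-5p: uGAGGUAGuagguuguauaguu
hsa-miR-23a-3p: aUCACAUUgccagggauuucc
hsa-miR-24-3p: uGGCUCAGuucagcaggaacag
hsa-miR-181c-5p: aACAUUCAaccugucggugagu
MIR31 had 297, 192 and 297 at 24 h and 162, 128 and 206 untreated (log2 change 0.66 ± 0.17; adjusted p = 0.0175), and the groups overlapped. MIRLET7A2 rose by 0.62 ± 0.15, MIR23A by 0.59 ± 0.16, MIR181C by 0.54 ± 0.14 and MIR24-2 by 0.53 ± 0.16 (adjusted p = 0.0472); MIR23A, MIR24-2 and MIR181C lie near each other on chromosome 19. MIR23A had 246, 228 and 218 at 24 h and 154, 182 and 128 untreated, without overlap. In siControl its change was -0.06 (limma adjusted p = 0.886), and the difference between the arms was 0.65 (0.17 to 1.12, limma unadjusted p = 0.01). That difference was not called after adjustment, and 705 of 18377 genes had an unadjusted p under 0.05 in that test.

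Small nucleolar RNA genes of the SNORD113 and SNORD114 families, imprinted copies on chromosome 14, rose in 6 of 6 measured (median 0.90), and in siControl in 6 of 6. SNORD113-3 had 201, 206 and 167 at 24 h and 90.3, 86.0 and 94.8 untreated (log2 change 1.08 ± 0.13; adjusted p = 2.81e-05). The 6 lie in 1 cluster and are copies of 2 families, so they are not independent. Of 170 other snoRNA genes 0 rose and 10 fell (median -0.15), against 0 and 5 in siControl; the share called lower lay near the 6.09% of all genes.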

How the data were processed

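Each array's values were deposited by the authors as RMA intensity on a linear scale, made with Partek and RMA per the submitters' processing notes; no version of either is given in the sources used here. Intensity as deposited ran between 21.2 and 51230, and log2 was taken once. Of 28869 probe sets, 19310 had 1 symbol, 1752 several and 7807 none listed. Where a gene had several probe sets the brightest was kept (933 left out), which gave 18377 genes. Limma 3.58.1 in R 4.3.3 fitted 6 group means (eBayes without trend or robust; 12 residual and 18.1 total degrees of freedom). P-values were adjusted by Benjamini-Hochberg over 18377 genes, and a gene was called at an adjusted p under 0.05; the scripts were tested on simulated data. The p-values measure the spread between arrays labelled as biological replicates, and the number of arrays limits the precision. The deviations of same-numbered siPKCiz arrays correlated across genes at -0.11, 0.012 and 0.092 between 24 h and untreated, and at 0.17, 0.067 and 0.26 between 24 h and 8 h. In neither did every pair pass 0.1, so the numbers were not used as pairs.

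The comparison and the 37 gene lists (710 genes, 661 measured) were chosen with earlier results of these data known. Some genes stand in more than 1 list, so the lists are not independent of each other. Named genes were PRKCI, PRKCZ and main transition markers, the 15 highest and 15 lowest called genes without overlap of arrays, up to 4 called members of each list with the largest change, and the 8 highest and 8 lowest called genes of 24 h against 8 h. List members whose level a sentence describes were named too. Some genes and loci are not analysed here. Alternatives covered the replicate block, array weights, quantile normalization, moderation with trend and robust on, median centring, all probe sets, a filter on dim probe sets, a minimum fold of 1.5, only the arrays compared, and leaving out replicates or arrays. The list counts without replicate 1 were added after the data were seen.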

Additional observations from a re-analysis of the deposited data

Results flagged for a closer look

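Probe sets outside the genes with 1 symbol also carried a signal at 24 h in siPKCiz cells. Fitted together with all probe sets, those with several symbols were called higher in 42 and lower in 60 of 1752 (5.82%). Those with no symbol listed were called higher in 98 and lower in 61 of 7807 (2.04%). Probe sets with 1 symbol were called higher in 776 and lower in 959 of 19310 (8.98%) in that fit. The log2 change reached 2.27 in each of the first 2 kinds. No gene is named from them here.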

How the results depend on the processing

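Counts are given as higher and lower. The main comparison, 855 and 1119, moved past 1.5 times its size with a fold of at least 1.5 (57 and 33). Under array weights (1087 and 1706) only the lower count did. With a replicate or 1 array left out the counts were 387 to 827 and 372 to 1007, and some but not all of these settings passed that size. Without replicate 1 neither count of the main comparison did. It stayed within that range under the replicate block (742 and 895), quantile normalization (992 and 952), median centring (776 and 1278), trend and robust moderation, the dim filter, all probe sets and only the arrays compared. The siControl response, 1075 and 1187, had 1945 lower under array weights, 91 and 62 with the fold, and 380 to 1220 and 331 to 1652 without a replicate. The difference between the arms, 0 and 0, had 1 lower under array weights (MATN3), and 0 to 31 and 0 to 49 without a replicate. The 8 h response, 575 and 616, had 875 and 996 under array weights, 17 and 1 with the fold, and 160 to 540 and 153 to 583 without a replicate. The test of 24 h against 8 h, 71 and 77, had 34 and 43 under the replicate block, 126 lower with median centring, 161 and 227 under array weights, 1 and 0 with the fold, 16 and 11 with only the arrays compared, and 1 to 136 and 0 to 163 without a replicate. PRKCZ, not called, ranged between -0.16 and 0.25 when arrays were left out, with -0.063, -0.0021, -0.131 and -0.035 the other values below 0. Of 152 results on single genes, 144 kept their direction and call under the replicate block, 145 under quantile normalization, 139, 103 and 99 without replicate 1, 2 or 3, and 54 with the fold. Where arrays are left out fewer arrays are tested; for the other settings the cause was not tested.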

Other observations

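Runs of at least 3 neighbouring genes called in the same direction, in the RefSeq GRCh38.p14 gene order and named after their values were seen, were found 35 times. Among genes that rose were the matrix metalloproteases MMP10, MMP1 and MMP3 on chromosome 11, the growth factor-like genes IGFL2, IGFL3 and IGFL1 on chromosome 19, the homeobox genes HOXD11, HOXD10 and HOXD9 on chromosome 2, and SLIT3, SPDL1 and DOCK2 on chromosome 5. A run of 5 on chromosome 1 held B3GALNT2, GNG4, LYST, NID1 and GPR137B. Among genes that fell were the fibrinogen chains FGB, FGA and FGG on chromosome 4, the aldo-keto reductases AKR1C1, AKR1C2 and AKR1C3 on chromosome 10, the complement proteases C1S, C1R and C1RL on chromosome 12, and the bradykinin receptors BDKRB2 and BDKRB1 with C14orf132 on chromosome 14. KITLG, DUSP6, POC1B and ATP2B1, neighbours on chromosome 12, fell together too. How often such runs arise without a shared cause was not tested, and members of a family may share probe signal.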
